A study of Mus musculus with 4 samples.

Results

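The genes described here are annotated to transcription factor families, whose proteins mostly bind DNA and set how strongly other genes are read. That annotation alone makes them transcription factor genes here. They were taken from the differential expression tables of a mouse mammary tumour study: every protein-coding row with an entry in the column of transcription factor families, apart from 22 named genes that were left out. Of 1142 listed genes, 1043 were protein-coding and 73 of those had a family. After 20 of these were left out by name, 53 members in 20 families remained, with 1089 listed genes outside the group. The families differ in size: zf-C2H2 had 11 members, Homeobox 8, HMG and bHLH 6 each and TF_bZIP 3, while 4 families had 2 members and 11 had 1.

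RNA was sequenced from 4 tumours of female mice of the MMTV-PyMT strain; their background was mixed C57BL/6, and the controls were littermates. Knockouts 1 and 2 carried the miR-9 knockout, which the labels describe as affecting exon 1, and controls 1 and 2 were without it. The polyoma middle T oncogene, driven in mammary epithelium by the mouse mammary tumour virus promoter, was common to both groups. The labels do not say whether the knockout tumours were homozygous, which of the miR-9 genes was altered, or how many animals gave the 4 tumours. The p-values therefore describe the spread among the samples alone, which may be technical.

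A transcription factor family is defined by a shared DNA-binding fold. C2H2 zinc fingers, homeodomains, HMG boxes, basic helix-loop-helix (bHLH) dimers and basic leucine zippers (bZIP) are the main ones here. In mammary tumours such genes are read in the cancer cells and also in macrophages, lymphocytes and stromal cells, each of which has its own set of lineage factors. miR-9 is a microRNA that pairs through its seed with the 3' untranslated regions (UTRs) of messenger RNAs and lowers their output, and it is best known from neural progenitors.

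The mature miR-9 sequences are shown because the seed, in capitals (bases 2 to 8), sets what can pair with them. Both arms come from 3 hairpin genes of identical mature sequence, Mir9-1 at chr3:88215598-88215686, Mir9-2 at chr13:83738814-83738885 and Mir9-3 at chr7:79505264-79505353, all on the plus strand (RefSeq, GRCm38.p6).
mmu-miR-9-5p: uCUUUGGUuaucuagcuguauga
mmu-miR-9-3p: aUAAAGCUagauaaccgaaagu

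A match to the 5p seed reads ACCAAAG on the message and a match to the 3p seed reads AGCTTTA. The longest annotated 3' UTR (GENCODE M21, GRCm38) was searched on the message strand. A 5p match was found in 9 of 52 members with a UTR (17.3%), against 147 of 986 other listed protein-coding genes (14.9%) and 2565 of 21037 protein-coding genes of the annotation (12.2%). Among the members it was present in 8 of 29 that rose (27.6%) and 1 of 23 that fell (4.35%), and the median UTR was 2590 bases in the members that rose against 1063 bases in those that fell. The part of UTR length in that difference was not tested. The other listed genes were not split by direction, so whether the difference is particular to the members is not known. A 3p match was present in 13 of 52 members (25.0%), against 117 of 986 other listed protein-coding genes (11.9%) and 2375 genes of the annotation (11.3%). It was present in 34.5% of members that rose and 13.0% of those that fell. The median UTR was 1464 bases in members, 1100 in the other listed genes and 960 in the annotation.

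Mef2c, Msc and Ikzf2 held a 5p match followed by an A, the longest form of match searched, and rose in the knockout tumours with the deposited scaling; Mef2c and Msc were also called with TMM scaling of the listed genes and none of the 3 with RLE scaling. Such a match was present in 7.69% of members with a UTR, 5.17% of other listed protein-coding genes and 4.12% of the annotation. Their matches are printed with the match in capitals, together with the match in Myrf, which was the single member with a 5p match that fell. Each window is at most 30 bases long, and a match describes letters only.
Mef2c (chr13:83666501-83666530, plus strand): actatgttttaACCAAAGAtgtggagcaat
Msc (chr1:14754043-14754072, minus strand): aaacttctgtaACCAAAGAaagcccagttt
Ikzf2 (chr1:69536041-69536070, minus strand): gcctctttttcACCAAAGAgaataggagac
Myrf (chr19:10208676-10208704, minus strand): gtcaaccttggACCAAAGttgccttaagc

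Further 5p matches lay in Tfcp2l1, which had 2, in Maf, Cers6 and Runx3, and at another place in Ikzf2.

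Values are normalised reads, that is, counts of reads scaled by the deposited size factor of each sample. The value of a single read gave relative depths of 1.11 and 1.04 in knockouts 1 and 2, against 0.998 and 0.885 in controls 1 and 2. The listed genes held 694925 and 697334 reads in the knockouts and 512574 and 458335 in the controls. Among members the median absolute log2 difference was 0.244 between the knockout tumours and 0.608 between the controls, so the controls were the less alike pair.

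None of the 3 miR-9 hairpin genes is listed. The host transcript that spans Mir9-1 is: Gm3764, a long noncoding RNA gene at chr3:88206813-88229959, whose annotated exons do not include the hairpin. It held 0.904 and 3.84 normalised reads (1 and 4 reads) in knockout tumours, against 51.1 and 54.2 (51 and 48 reads) in controls. Both knockout tumours were far below both controls, with a log2 change of -4.14 ± 0.73 (SE, limma adjusted p = 0.00326). The labels do not name the altered miR-9 gene, and 99.8% of listed genes were called, so this value does not show which was altered. Whether the deleted part covers the counted exons of Gm3764 is not stated. A member lies near another copy: Mef2c is 71.7 kb from Mir9-2.

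Between the knockout and control tumours 29 members rose and 24 fell, by limma on log2(value + 1) at an adjusted p under 0.05 over all listed genes. All 53 passed, but the table is a selection by the study on these samples in which 99.8% of genes passed, so the calls of single members add little to their listing. Among all listed genes 61.3% were called higher and 38.5% lower; the members' shares were 54.7% and 45.3%. The median log2 change was 1.15 over members and 1.23 over all listed genes. All 53 members had groups that did not overlap, as had 99.9% of the table. By at least 2 on the log2 scale, 6 of 53 members rose (11.3%), beside 22.8% of listed genes, and 9 fell (17.0%), beside 15% of listed genes. In both directions together 28.3% of members reached that size, against 37.8% of all listed genes, but with the genes left out by name put back it was 30 of 73 (41.1%). Members stood lower in level per length, with a median of 21.6 normalised reads per kb of transcript against 38.9 over all listed genes. None of these differences was tested.

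The split between the directions depends on the scaling. With TMM factors from the listed genes 9 members were called higher and 24 lower, where 24.3% of listed genes were called higher and 38.4% lower. With RLE factors 2 were called higher and 24 lower, where 15% and 38.4% of listed genes were. The median over all listed genes moved from 1.23 to 0.49 with TMM and to 0.14 with RLE, and the members' median moved with it, to 0.42 and 0.07. Each of the 24 members that fell kept its call in both settings. Both sets of factors came from the listed genes alone, which are a selection of changed genes, and they shifted the members' log2 changes downward. Such a shift keeps falls and weakens rises, so the kept calls do not show that the falls are firmer than the rises. Irf5 and Arntl turned to -0.08 and -0.06 with RLE (adjusted p = 0.872 and 0.896).

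**Figure D1:**
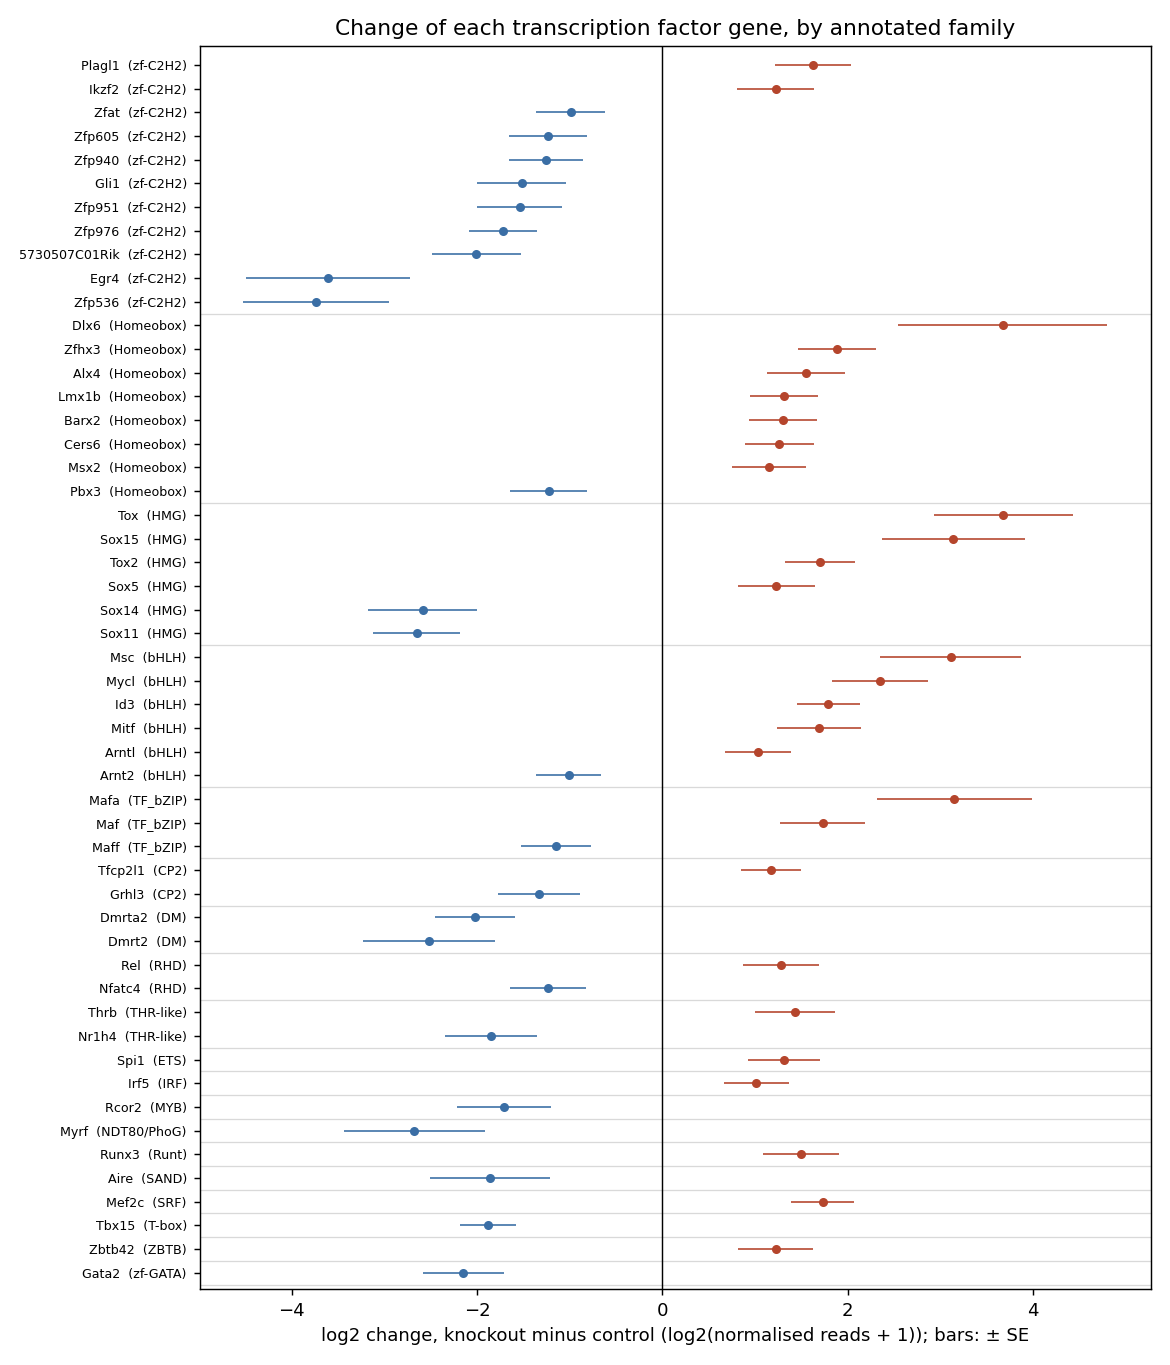
Log2 change (knockout minus control, on log2(normalised reads + 1)) of 52 transcription factor genes, grouped by annotated family, with bars of 1 SE. With the deposited scaling most zf-C2H2 genes lie left of 0, while most Homeobox and bHLH genes lie right of it; Irf5 and Arntl cross 0 with RLE scaling.

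The C2H2 zinc finger genes moved mainly downward: 9 of 11 fell and 2 rose, with a median log2 change of -1.52. Over all listed genes 38.5% were called lower, and the difference was not tested. The 9 that fell also did so with TMM and RLE scaling, while neither of the 2 that rose was called there. Those factors shift log2 changes downward, and 38.4% of listed genes were called lower with either. The kept and lost calls thus add nothing about the family. Summed over the family the values were 1035.5 and 950.1 in knockout tumours, against 1468 and 1340 in controls. Zfp536, a repressor of neuronal differentiation, had 9.04 and 1.92 normalised reads in knockout tumours, against 44.1 and 115 in controls. Its log2 change was -3.74 ± 0.79 (adjusted p = 0.0057), and it was not called without control 2. Egr4, an immediate early gene induced by growth and neuronal signals, had 0.904 and 1.92 in knockout tumours, against 52.1 and 14.7 in controls. Only 3 reads stand behind the knockout values of Egr4, and the control level was 24.7 times the knockout level on pooled reads (95% Clopper-Pearson interval 8.10 to 123, counting error only). For both genes the knockout tumours lay below the controls, and the controls differed by over 2-fold between themselves.

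Gli1, the transcriptional effector and target of Hedgehog signalling, had 20.8 and 28.8 normalised reads in knockout tumours, against 76.2 and 67.8 in controls, a log2 change of -1.52 ± 0.48. Zfat, a zinc finger factor of lymphocytes, had 114 in both knockout tumours, against 268 and 194 in controls. Of the zinc finger genes known by number, Zfp605 and Zfp940 fell by 1.24 and 1.26 on the log2 scale. Zfp951 had 60.5 and 71.9 in knockout tumours, against 284 and 132 in controls, and its log2 change of -1.54 shrank to -0.99 without control 1. Zfp976 and 5730507C01Rik fell by 1.72 and 2.01, but 20.4% and 23.2% of their 50-base words also occur in other genes, so their counts are uncertain. These 9 genes were each higher in both controls than in either knockout tumour, but groups did not overlap in 99.9% of listed genes.

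Plagl1 and Ikzf2 went the other way. Plagl1, an imprinted growth regulator, had 456 and 392 normalised reads in knockout tumours, against 98.2 and 191 in controls (log2 change 1.62 ± 0.41). Ikzf2, which encodes Helios, a factor of regulatory T cells, had 176 and 157 in knockout tumours, against 55.1 and 91.5 in controls. Control 1 was the lowest sample for both.

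**Figure D2:**
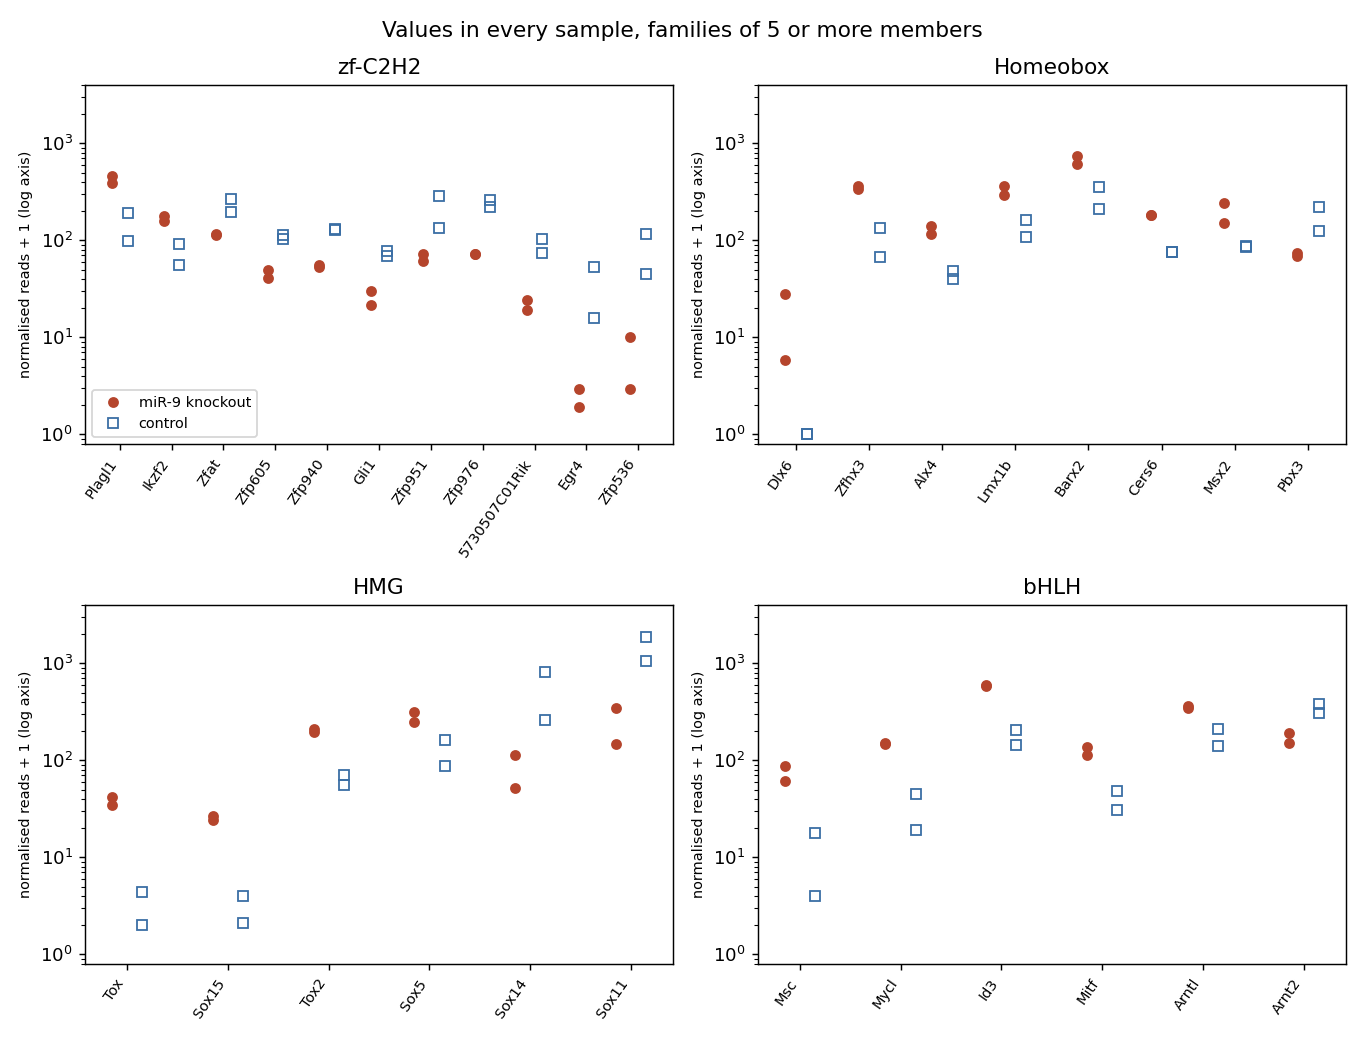
Normalised reads + 1 (log axis) of every member in each sample for the 4 largest families; filled circles are the knockout tumours and open squares the controls. No gene shown has overlapping groups, as was so for 99.9% of all listed genes. The controls lie far apart in genes such as Msc, Egr4 and Sox14, and the direction of Arntl turns with RLE scaling.

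Of the Homeobox members kept here, 7 of 8 rose and Pbx3 fell, with a median log2 change of 1.31. Over all listed genes 61.3% were called higher. Other homeobox genes were among those left out by name, so these counts do not describe the whole listed family. Family sums were 1818 and 2069 normalised reads in knockout tumours, against 854 and 929.8 in controls. The direction of each was kept with TMM and RLE scaling, but 2 of the 7 were called higher with TMM (Dlx6 and Zfhx3) and 0 with RLE. Barx2, expressed in muscle progenitors and epithelia, had the highest level per length of the family and held 612 and 735 normalised reads in knockout tumours, against 207 and 356 in controls. Zfhx3, a very large factor with homeodomains and zinc fingers, had 360.5 and 336 in knockout tumours, against 66.1 and 133 in controls. Its log2 change was 1.88 ± 0.42 (adjusted p = 0.00664), and both knockout tumours were above both controls.

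Dlx6, a factor of craniofacial and forebrain development, was read in the knockout tumours only, with 27.1 and 4.79 normalised reads, against 0 in both controls. It was at least 10.2-fold higher when the controls are set to a floor of 3 reads for the pair, and the knockout tumours differed widely from each other. Dlx6 was not called when either control was left out. Msx2, a target of bone morphogenetic protein (BMP) signalling with a part in mammary ducts, had 152 and 242 in knockout tumours, against 85.2 and 85.9 in controls, and was also not called without either control. Alx4, a limb and skull patterning factor, had 116 and 141 in knockout tumours, against 39.1 and 47.5 in controls. Lmx1b, which patterns the dorsal limb, had 296 and 361 in knockout tumours, against 161 and 106 in controls. Alx4, Lmx1b and Msx2 thus each had their lowest knockout value above their highest control value, but groups did not overlap in 99.9% of listed genes.

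Cers6 is a ceramide synthase of the endoplasmic reticulum that is placed in the family for a homeobox-like domain. Its 183 and 181 normalised reads in knockout tumours, against 75.2 and 75.7 in controls, were the most alike within groups of the family (log2 change 1.26 ± 0.37). Pbx3, a cofactor of Hox proteins, had 72.3 and 68.1 in knockout tumours, against 219.5 and 125 in controls, a log2 change of -1.23 ± 0.42 that was not called without control 1.

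The HMG family held large changes in both directions, with 4 members higher and 2 lower, from 3.68 to -2.65 on the log2 scale. Of all listed genes 61.3% were called higher and 38.5% lower. All signs were kept with TMM and RLE scaling, but some changes shrank. Sox5 went to 0.49 with TMM and 0.14 with RLE and was called with neither. Tox2 and Sox15 were called with TMM but not with RLE. Tox, which directs T cell development and the exhausted T cell state, had 40.7 and 33.6 normalised reads in knockout tumours, against 1.00 and 3.39 in controls, or 1 and 3 reads. The 16.9-fold difference of means was the widest among the members with more than 3 reads in each group. It rests on these few control reads, so its size is uncertain. Tox was one of 2 members still called higher with RLE scaling (adjusted p = 0.0157). Tox2, a related gene of natural killer and T cells, had 193 and 211 in knockout tumours, against 55.1 and 68.9 in controls. Sox15, a factor of muscle progenitors in mice, had 23.5 and 25.9 in knockout tumours, against 3.01 and 1.13 in controls, or 3 and 1 reads. Sox5, a partner of Sox6 in cartilage, had 315 and 248 in knockout tumours, against 86.2 and 163 in controls, and its log2 change of 1.23 dropped to 0.78 without control 1 and was then not called (adjusted p = 0.0581).

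Sox11 and Sox14 made up most of the family's reads in the controls. Sox11, active in embryonic neural and mesenchymal progenitors, had 342 and 146 normalised reads in knockout tumours, against 1888 and 1044 in controls. The 6.02-fold lower mean in knockout tumours gave a log2 change of -2.65 ± 0.47 (adjusted p = 0.00338), and the call was lost without control 1. Sox14, a factor of interneurons in mice, had 50.6 and 113 in knockout tumours, against 262 and 817 in controls, a log2 change of -2.59 ± 0.59. Its call was lost without control 2, and control 2 was its highest sample.

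In the bHLH family 5 of 6 members rose and Arnt2 fell, with a median log2 change of 1.74, though Arntl turned to the other side with RLE scaling. Over all listed genes 61.3% were called higher. TMM kept 3 of the 5 calls (Msc, Mycl and Id3) and RLE 1 (Mycl, adjusted p = 0.0495). Family sums were 1472 and 1447 normalised reads in knockout tumours, against 710.5 and 834 in controls. Id3 lacks a DNA-binding region, dimerises with other bHLH factors to block them and is induced by BMP signals. It had 601 and 583 in knockout tumours, against 141 and 206 in controls. Its knockout tumours were nearly alike, and its log2 change of 1.79 ± 0.34 had the smallest adjusted p among the members that rose (0.00417).

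Mycl, the Myc family member of dendritic cells and neuroendocrine tumours, had 149 and 148 normalised reads in knockout tumours, against 18.0 and 44.1 in controls. Msc, or musculin, a repressor of muscle and B cell genes, had 60.5 and 86.3 in knockout tumours, against 3.01 and 16.9 in controls; its log2 change of 3.11 dropped to 2.03 without control 1. An antisense gene shares 21.2% of the exonic bases of Msc, and the strand setting of the counting is not given in the sources used here. Mitf, which acts in melanocytes, osteoclasts and macrophages, had 112 and 137 in knockout tumours, against 30.1 and 47.5 in controls. For these 3 genes control 1 was the lowest of the 4 samples.

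Arntl encodes the clock factor that pairs with Clock, and Arnt2 a partner of the neural and hypoxia-sensing bHLH proteins. Arntl had 359 and 341 normalised reads in knockout tumours, against 138 and 210.1 in controls, a 2.01-fold ratio of means with the deposited scaling, the smallest among the members that rose. Arnt2 had 191 and 152 in knockout tumours, against 379.8 and 309.6 in controls, and a log2 change of -1.01 ± 0.35. Apart from Arntl, 0 of the other clock genes on a list of 20 fixed for comparison are listed.

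The bZIP genes were all of the Maf group, 2 of which rose while Maff fell, signs that TMM and RLE scaling kept. Of all listed genes 61.3% were called higher. Neither Mafa nor Maf was called with TMM or RLE. Mafa, an activator of the insulin gene in beta cells, had 37.1 and 43.1 normalised reads in knockout tumours, against 9.02 and 1.13 in controls, and its log2 change of 3.15 dropped to 2.03 without control 2. Maf, a factor of macrophages and helper T cells, had 334 and 305 in knockout tumours, against 62.1 and 147 in controls; its log2 change of 1.73 dropped to 1.11 without control 1. Maff, a small Maf protein with no activation domain and an immediate early gene, had 119 and 82.5 in knockout tumours, against 244 and 202 in controls, and was not called without control 1.

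Nuclear receptors are ligand-activated factors, and the THR-like family held one that rose and one that fell. Thrb, a thyroid hormone receptor, had 113 and 124 normalised reads in knockout tumours, against 36.1 and 52.0 in controls. Nr1h4, the bile acid receptor FXR, had 23.5 and 33.6 in knockout tumours, against 142 and 75.7 in controls (log2 change -1.85 ± 0.50). Both signs were kept with TMM and RLE scaling, but Thrb was then not called.

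Tbx15 had the highest level of all members, at 2101 normalised reads on average and 561 per kb. It is a T-box factor of limb and skin mesenchyme and of adipose tissue, encoded at chr3:99240381-99354259 on the plus strand. It held 961 and 838 normalised reads in knockout tumours, against 3348 and 3256 in controls. The groups averaged 899.7 ± 87.3 in knockout tumours and 3302 ± 65.2 in controls (SD, n = 2 each), and the log2 change of -1.88 ± 0.30 had the smallest adjusted p among the members (0.00267). Per length, Barx2 came next with 243 reads per kb, then Id3 with 214, Dmrta2 with 159.6 and Sox14 with 150.4, and Tox was lowest with 2.58.

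Families of 2 members moved apart except for the DM family. Dmrta2, a factor of the developing cortex, had 253 and 125 normalised reads in knockout tumours, against 565 and 923 in controls. Dmrt2, a somite and muscle factor, had 3.61 and 13.4 in knockout tumours, against 40.1 and 52.0 in controls. Both were lower in each knockout tumour, but neither was called without control 2, and Dmrt2 also not without control 1. In the CP2 family Tfcp2l1, a factor of embryonic stem cells and kidney ducts, had 1298.5 and 1085 in knockout tumours, against 604 and 459 in controls. Its relative Grhl3, needed for the skin barrier, had 33.4 and 39.3 in knockout tumours, against 99.2 and 87.0 in controls. In the Rel homology family Rel, an NF-kappaB subunit of lymphoid cells, had 204 and 141 in knockout tumours, against 78.2 and 61.0 in controls. Its relative Nfatc4, a calcium-regulated factor, had 48.8 and 67.1 in knockout tumours, against 129 and 145 in controls. Tfcp2l1 and Rel were above both controls in each knockout tumour, and Grhl3 and Nfatc4 below, though groups did not overlap in 99.9% of listed genes. TMM and RLE scaling kept these signs, but Tfcp2l1 and Rel were then not called.

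Myrf, Rcor2 and Aire fell and shared a feature: control 1 far above control 2. Myrf, a membrane-tethered factor of myelin-forming cells, had 9.04 and 12.5 normalised reads in knockout tumours, against 164 and 32.8 in controls. Rcor2, a corepressor of neural progenitors, had 107 and 95.9 in knockout tumours, against 566 and 195 in controls. Aire, which drives self-antigens in the thymus, had 35.2 and 39.3 in knockout tumours, against 283 and 66.7 in controls. Without control 1 the log2 change dropped to -1.54 in Myrf, -0.94 in Rcor2 and -0.82 in Aire, against -2.68, -1.71 and -1.86 with it, and Aire was then not called (adjusted p = 0.0787). Without control 2 that of Aire was -2.89. Gata2, a factor of blood progenitors and mast cells, had 38.9 and 30.7 in knockout tumours, against 193 and 126.5 in controls, and a log2 change of -2.15 ± 0.44.

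Mef2c, a factor of muscle, neurons and lymphoid and myeloid cells at chr13:83504034-83667080, had 473 and 452.5 normalised reads in knockout tumours, against 119 and 162 in controls. The groups were well apart, with 462.5 ± 14.2 in knockout tumours and 140.4 ± 29.9 in controls (SD, n = 2 each), and the log2 change was 1.73 ± 0.34 (adjusted p = 0.00457). Zbtb42 had 406 and 477 in knockout tumours, against 135 and 261 in controls, and its log2 change of 1.22 shrank to 0.75 without control 1. It was called with neither TMM nor RLE scaling.

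The listed factors on the myeloid and lymphoid lists all rose in the knockout tumours with the deposited scaling. Gata2, Aire and Zfat, which fell, are on neither list. Of all listed genes 61.3% were called higher with the deposited scaling, 24.3% with TMM and 15% with RLE. Of 14 myeloid factors fixed for comparison, 4 were listed and all rose with the deposited scaling, while none of the 4 was called with TMM or RLE and Irf5 turned to the other side with RLE. Spi1, the master regulator of macrophages and B cells, had 296 and 313.5 normalised reads in knockout tumours, against 93.2 and 162 in controls. Irf5, which drives inflammatory genes in macrophages, had 242 and 286 in knockout tumours, against 117 and 143.5 in controls; 14.1% of its exonic bases overlap Tnpo3 on the opposite strand. With Maf and Mitf these summed to 985 and 1041 in knockout tumours, against 303 and 499 in controls. Of 20 lymphoid factors, 3 were listed and rose. They were Ikzf2, Tox and Runx3, a factor of cytotoxic T cells with 145 and 146 in knockout tumours, against 42.1 and 61.0 in controls. Of these, Tox alone stayed called with TMM and RLE. Their sums were 361 and 336.5 in knockout tumours, against 98.2 and 156 in controls.

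With the deposited scaling, the listed immune cell markers moved in the same direction as these factors, where 61.3% of all listed genes were called higher. Marker values with TMM or RLE scaling are not given here. Of 12 macrophage markers 7 were listed and all were higher, summing to 36305 and 43528 normalised reads in knockout tumours, against 9819 and 16886 in controls. Most of each sum was Apoe, with 28373 and 33805 in knockout tumours, against 6562 and 11799 in controls. Of 12 T and natural killer cell markers 3 were listed, all higher, with 216 and 224 in knockout tumours, against 50.1 and 71.2 in controls. Of 10 B and plasma cell markers 3 were listed, all higher, with 732 and 1085 in knockout tumours, against 165 and 230.5 in controls. None of these listed markers was at 0 in any sample. Their part in the levels of the immune factors was not tested, and in bulk tumours more cells of a type and more RNA per cell cannot be told apart.

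**Figure D3:**
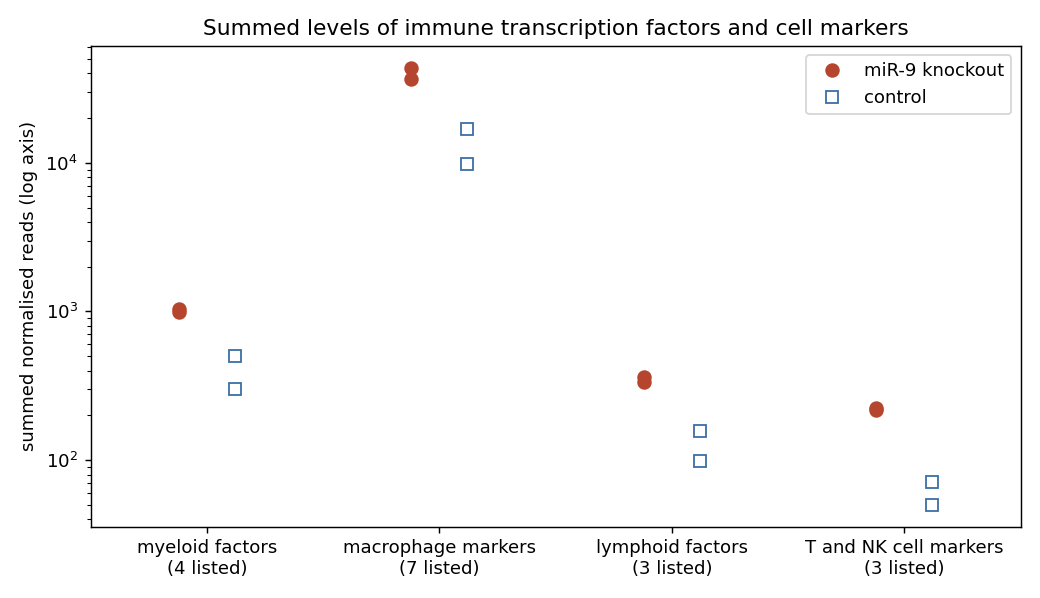
Summed normalised reads (log axis) of the listed myeloid and lymphoid transcription factors beside the listed macrophage and T and natural killer cell markers, 1 point per sample, with knockout tumours as circles and controls as squares. In all 4 groups of genes both knockout sums lie above both control sums with the deposited scaling, where 61.3% of all listed genes were called higher.

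Other cell types also differed in their markers with the deposited scaling, where 61.3% of all listed genes were called higher and 38.5% lower. Of 12 skeletal muscle markers 9 were listed and all were lower, with sums of 75.9 and 45.1 normalised reads in knockout tumours, against 615 and 1094 in controls, and 2 of them, Myh1 and Pvalb, stood at 0 in 1 knockout tumour each. Of 8 smooth muscle and myoepithelium markers 6 were listed, all higher, with 27765 and 26645 in knockout tumours, against 2694 and 6644 in controls. Of 10 adipocyte markers 4 were listed, all higher, with 433 and 1270.3 in knockout tumours, against 94.2 and 202 in controls. Of 10 fibroblast markers 4 were listed, 3 of them higher, with 21076 and 27179 in knockout tumours, against 10519.5 and 12847.5 in controls. Of 8 Schwann cell markers 4 were listed, 3 of them higher, with 1509.9 and 1528 in knockout tumours, against 776 and 1533 in controls. The part of these cell types in the members' levels was not tested. As a check of the tissue, 3 of 14 mammary epithelium markers were listed, which says only that the others did not enter a list of changed genes. Krt19 and Krt5 were higher and Krt14 lower, with sums of 16651 and 17747 in knockout tumours, against 7729 and 9006 in controls. Of 6 endothelial markers 0 were listed.

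Other role lists held few members. Of the mammary luminal factors Tfcp2l1 and Msx2 were listed and rose, and of 25 mesenchymal factors 2 were listed and fell (Sox11 and Tbx15). Of 22 immediate early genes 2 were listed, Egr4 and Maff, and both fell. Of 15 factors of the transforming growth factor and BMP pathway 1 was (Id3). Of 10 hypoxia factors 1 was listed (Arnt2), of 12 skeletal muscle factors 1 (Mef2c), of 11 adipocyte factors 1 (Nr1h4) and of 24 neural and Schwann factors 1 (Sox5). None of the Hox genes (52 on the list), E2F and Myb factors (14), endoderm and liver factors (17), or factors of basal epithelium, interferon, Notch (10 each) and Wnt signalling (6) was a member. Some well-known factors of these lists were among the genes left out by name, so these counts describe the members alone.

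**Figure D4:**
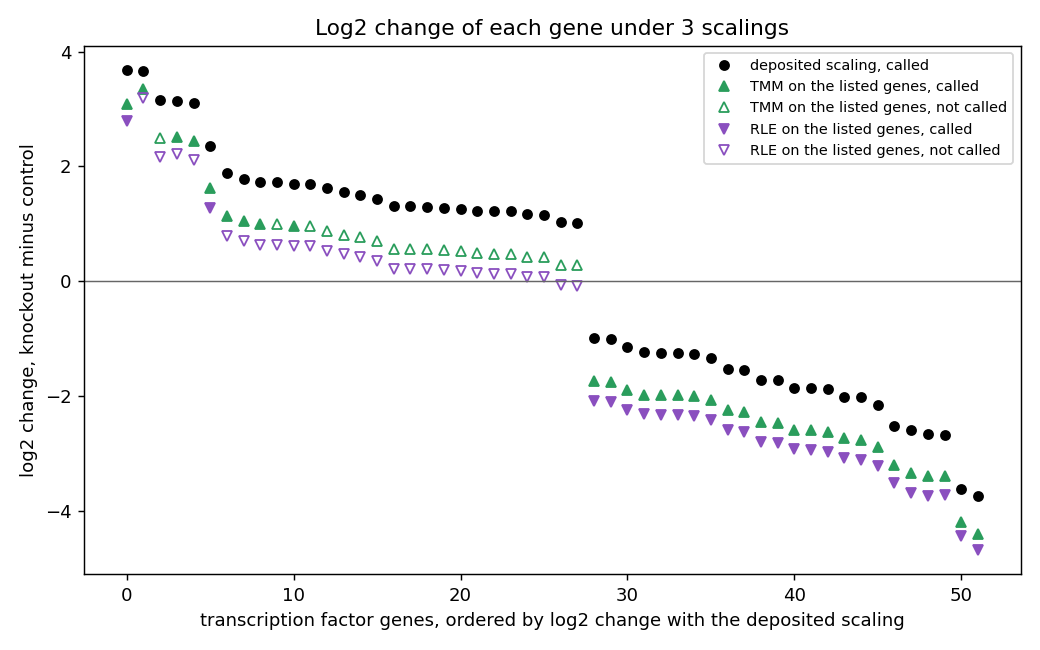
Log2 change (knockout minus control) of 52 members with the deposited scaling (circles), TMM (upward triangles) and RLE factors (downward triangles), ordered by the first; filled symbols were called at an adjusted p under 0.05. All 24 members that fell stay called, while 9 and 2 of those that rose stay called with TMM and RLE, and Irf5 and Arntl cross 0 with RLE. Both factors come from the listed genes alone and shift the log2 changes downward, which keeps falls and weakens rises.

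Single samples weighed on some of these values. Leaving out control 1 kept 45 of 53 calls (86.7% of all listed genes stayed called), and leaving out control 2 kept 46 (93.7%). Leaving out either knockout tumour kept 1 call, Dlx6, with 1.14% of listed genes called; the residual spread then comes from the 2 controls alone. In those fits Dlx6, at 0 in both controls, had no residual spread of its own, so keeping its call says little about its stability. Control 2 lay above control 1 in 23 of 29 members that rose, and control 1 above control 2 in 17 of 24 that fell, or 79.3% and 70.8%. The shares over all listed genes were 81.1% and 67.2%, so the members followed the table in this.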

How the data were processed

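Tumour RNA of 2 miR-9 knockout and 2 control samples, grouped by the genotype label, was sequenced on an Illumina NovaSeq from TruSeq libraries, per the labels' protocols. Bowtie 0.12.2 and the builds hg38, GRCm38 and mm10 appear, without roles, in the submitters' processing notes. How reads were counted, on which strand and how genes were chosen for listing is not given in the sources used here. The deposited signal values were counts over a size factor: division by the value of 1 read gave whole reads for 100% of values, to within 1e-06 reads. For control 1 the value of a read is 1.00215, and this nearness to 1 makes its recovered reads less sure. Coordinates of 52 of 53 members were identical in GENCODE M21.

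Members, gene lists, markers and tests were chosen with earlier results of these data known. Limma 3.58.1 (R 4.3.3) with a trend was run on log2(value + 1), leaving out genes whose mean is under 0.5, with genotype as the single term and Benjamini-Hochberg adjustment over all 1142 genes; every adjusted p in the text is from it. The script was tested on simulated data. Log2 changes understate those of genes with low values. Folds are ratios of group means. Genes named first were the 8 largest changes in each direction (mean of the higher group 20 or more), the 6 highest levels, the highest and most changed of each family of at least 3, and members of role lists; the others were named to account for the members. The values of 1 member, counted in the totals, are not reported here. Alternatives were pseudocounts of 0.1 and 5, other filters and scalings, edgeR 4.0.16, DESeq2 1.42.0 and limma-voom on recovered reads, a replicate term, and leaving out each sample. Chi-square per degree of freedom over reads was 13.8 between knockouts and 55.8 between controls, so no pair was counted as 1 sample. Intervals and floors cover counting error only, since reads carried no molecular identifiers.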

Additional observations from a re-analysis of the deposited data

How the results depend on the processing

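Pseudocounts of 0.1 and 5, no filter, a minimum mean of 5, edgeR, DESeq2 and limma-voom on recovered reads kept 29 members higher and 24 lower. So did a term for the replicate number (the replicate block). The deviations of same-numbered samples correlated at 0.043 across genes, but 2 pairs cannot show whether such samples share more than a number. Scaling moved the higher calls, for which the cause was not tested. TMM on the listed genes gave 9 higher with a median log2 change of 0.42, and RLE 2 higher with 0.07. Upper-quartile scaling gave 20 higher with 0.73 and totals 22 higher, while all of these kept 24 lower. All of these factors came from a list of changed genes and shifted the median downward, so they cannot decide which direction is firmer. By family, TMM gave 0 zf-C2H2, 2 Homeobox and 3 bHLH members higher, RLE 0, 0 and 1 with 1 in HMG, and upper-quartile scaling and totals 1 zf-C2H2 member. With RLE, Irf5 reversed to -0.08 and Arntl to -0.06. An added log2 change of at least 2 left 6 higher and 9 lower. Leaving out each sample in turn gave 1 to 26 higher, 0 to 20 lower and a median from 0.78 to 1.11. Over those 4 settings the ranges were 0 to 2 higher and 0 to 9 lower in zf-C2H2, 1 to 5 and 0 to 1 in Homeobox, 0 to 4 and 0 to 1 in HMG, and 0 to 5 and 0 to 1 in bHLH. With 2 samples left in 1 group, the lone sample is assumed to vary like the pair. With the left-out genes put back, 42 of 73 were higher and 31 lower. Genes with few reads, such as Egr4 (3 reads in the knockouts) and Dlx6, are limited by depth.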
